A study of Mus musculus with 20 samples.

Results

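Matricellular proteins are secreted into the extracellular matrix but, unlike collagens, do little to build it. They bind collagens, growth factors and cell-surface receptors, and so tune how a cell attaches to its surroundings and responds to signals from them. In the intervertebral disc they are known chiefly from the annulus fibrosus (AF), the layered collagen ring that bears tension, and from the nucleus pulposus (NP), the gel-like core of notochordal origin, and mice without SPARC develop early disc degeneration. The class examined here comprised 10 genes chosen by symbol, namely Sparc, the thrombospondins Thbs1, Thbs2 and Thbs3, periostin (Postn), tenascin-C (Tnc), the CCN family genes Ccn1, Ccn2 and Ccn3, and osteopontin (Spp1). Of these 10 genes, 9 were each measured by 1 probe set, among 19505 genes named in all, and Spp1 was not analysed here.

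NP and AF tissue was dissected from 5 ank mice and from 5 WT littermates, all 13 weeks old. Each genotype had 2 males and 3 females. The ank mice are homozygous (ank/ank) for a loss-of-function mutation of Ank, which encodes a transporter that exports ATP and regulates extracellular pyrophosphate. The mutation is carried in every cell of the animal, and the level of Ank itself is not analysed here. The discs of 1 animal were pooled, and each tissue of each animal was hybridised to 1 Clariom S array, which gave 20 arrays in 4 groups of 5, named NP ank, NP WT, AF ank and AF WT. The study's methods name tail discs, whereas the deposited descriptions name tail and lumbar discs. The mouse number serves as the replicate number below. All values are log2 signals as deposited, so a difference of 1 is a doubling, and groups are given as mean ± SD (n = 5 mice).

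A gene counted as above background where its signal passed the 95th percentile of 1425 receptor genes for odorants, pheromones and trace amines on that array, a level of 6.81 to 8.26 in the NP and 6.72 to 8.41 in the AF. The NP arrays had 4003 to 7429 genes above background and the AF arrays 1781 to 6362. Krt19, a keratin of NP cells, was at 17.05 to 17.98 in NP ank and 17.55 to 18.08 in NP WT, against 9.37 to 16.20 in AF ank and 4.24 to 12.68 in AF WT. Not every NP marker separated the tissues. Car3 was at 19.63 to 19.93 in the NP and 19.55 to 19.93 in the AF, and Foxa2, Basp1 and Nog were below background in all 20 arrays. Comp, a thrombospondin relative of the AF and tendon, was above background in only 1 of 10 NP arrays, against 11.32 to 15.41 in AF ank and 12.21 to 15.49 in AF WT, whereas the tendon transcription factors Scx and Mkx were below background in all 20 arrays. AF WT replicate 33 stood apart from the other AF arrays, with all 12 skeletal muscle markers and all 8 osteoblast markers above background. The poly-A spike-in controls were present in 6 of 10 NP arrays and 4 of 10 AF arrays (set A, 8.52 to 10.11) and near the floor in the rest (set B, 3.24 to 4.05), and each set held equal numbers of ank and WT arrays in each tissue. In whole tissue, fewer cells of a type and less RNA per cell cannot be told apart.

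The 250 bases before the transcription start are shown for the 3 genes on which the genotype comparisons mainly turned, Sparc and Thbs2, which were lower in most NP ank arrays, and Ccn1, the member that varied most among AF ank arrays. The sequences come from RefSeq on GRCm38.p6 and are written along the gene strand. Capitals mark a SMAD-binding motif (CAGACA or its complement TGTCTG), the TEAD motif on either strand (GGAATG or CATTCC) and a TATA box (TATAAA on the gene strand).
Sparc: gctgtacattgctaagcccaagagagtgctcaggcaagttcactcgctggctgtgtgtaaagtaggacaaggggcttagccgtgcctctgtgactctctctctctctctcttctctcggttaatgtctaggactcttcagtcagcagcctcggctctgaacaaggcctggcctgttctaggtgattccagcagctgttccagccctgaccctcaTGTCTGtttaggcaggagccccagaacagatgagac
Thbs2: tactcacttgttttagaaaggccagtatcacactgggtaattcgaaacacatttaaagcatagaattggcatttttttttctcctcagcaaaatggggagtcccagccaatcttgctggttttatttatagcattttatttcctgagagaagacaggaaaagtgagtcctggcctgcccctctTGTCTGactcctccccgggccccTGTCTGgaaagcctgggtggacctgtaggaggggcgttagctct
Ccn1: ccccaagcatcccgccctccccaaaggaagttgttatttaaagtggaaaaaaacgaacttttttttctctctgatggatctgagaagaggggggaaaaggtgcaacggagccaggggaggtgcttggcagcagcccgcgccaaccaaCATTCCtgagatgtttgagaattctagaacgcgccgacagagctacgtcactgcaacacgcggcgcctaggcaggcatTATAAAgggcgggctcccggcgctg
The Sparc window lies at chr11:55420081-55420330 (minus strand), the Thbs2 window at chr17:14694263-14694512 (minus strand) and the Ccn1 window at chr3:145649986-145650235 (minus strand). TGTCTG began 36 bases before the Sparc start and 67 and 44 bases before the Thbs2 start, a motif held by 17.13% of 32851 promoter windows of this length. Ccn1 held CATTCC 103 bases and TATAAA 25 bases before its start, motifs found in 12.64% and 7.59% of windows. It also held a GC box (GGGCGG, either strand, 32.74% of windows) 19 bases before the start, which adjoins the TATA box without overlapping it, and its complement CCGCCC 239 bases before the start. The AP-1 motif TGANTCA (6.75% of windows) and the CArG box (1.47%) were searched on both strands and were not in these 3 windows. A match describes letters only, and no binding was measured.

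The 9 measured genes differed in how often they were detected. Sparc and Ccn1 were above background in all 20 arrays, Thbs2, Ccn2 and Ccn3 in 18, 18 and 19 arrays, and Thbs1 and Thbs3 in the AF alone, in 9 and 8 of 10 arrays. Postn was above background in 4 of 20 arrays and Tnc in 3 of 20, so neither was tested. These counts left 5 members tested between genotypes in the NP and 7 in the AF.

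**Figure D1:**
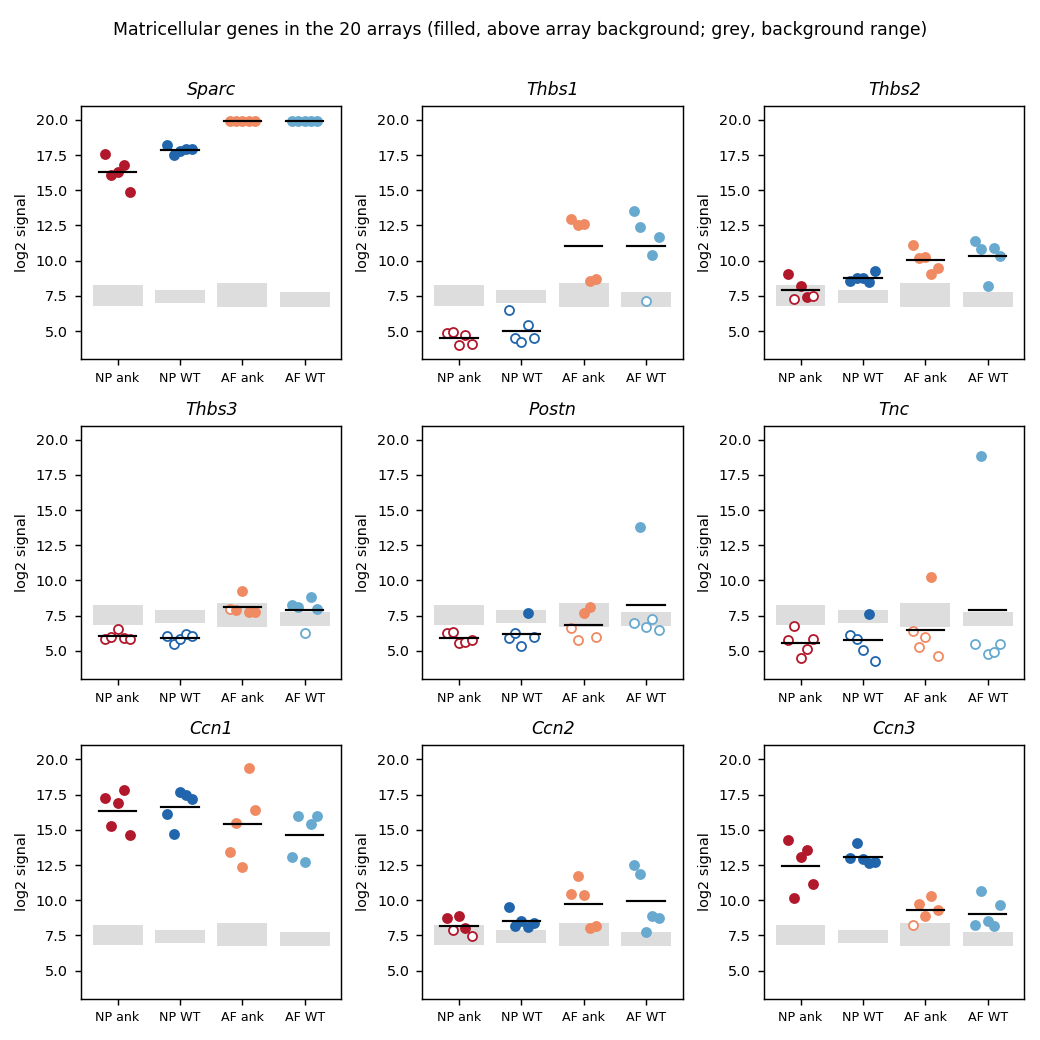
Log2 signal of 9 matricellular genes in each of the 20 arrays, with the groups NP ank, NP WT, AF ank and AF WT along the horizontal axis. Points are single arrays, filled where above the background of that array, black lines are group means and grey bands the range of the array background. Thbs1 and Thbs3 are open in every NP array, Sparc lies at the ceiling in the AF, and 1 AF WT array stands apart in Postn and Tnc.

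Sparc, Thbs2 and Ccn2 were lower in the NP than in the AF and Ccn3 was higher, while Thbs1 and Thbs3 were detected in the AF alone. Of the 7 members tested for NP minus AF, 5 were lower in the NP (Sparc, Thbs1, Thbs2, Thbs3 and Ccn2) and 1 was higher (Ccn3) after Benjamini-Hochberg adjustment in limma. The fit behind the tissue intervals and p-values treated the NP and AF arrays of a mouse as independent. With the mouse as a block no adjusted call of a member changed. Among all 6516 genes tested, 2.52% were lower in the NP and 76.4% higher, and the median gene was 1.26 higher in the NP. Thbs1 and Thbs3 were below background in all 10 NP arrays and were tested only because of their AF signal, so they had to differ. Among the 3902 genes above background in both tissues, the members called were 3 lower (Sparc, Thbs2 and Ccn2) and 1 higher, beside 1.64% of genes lower and 71.9% higher. The same 6 members met the thresholds of the study (unadjusted p below 0.05 and at least a 1.75-fold change), beside 2.12% of all genes lower and 69.6% higher. The NP and AF arrays may have been normalized apart from each other, so each tissue difference was also read after quantile normalization of all 20 arrays together, which moved the median gene to 0.27.

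Sparc encodes a collagen-binding glycoprotein that chaperones collagen deposition. It measured 16.32 ± 0.99 in NP ank and 17.88 ± 0.25 in NP WT, against 19.93 ± 0.01 in AF ank and 19.92 ± 0.02 in AF WT. The AF values lay at the top of the scale, with 4 AF ank and 3 AF WT arrays exactly at the table's maximum of 19.93. No NP array overlapped the AF range, a pattern seen in 0.599% of all genes in this direction. The tissue difference was -2.82 (95% CI -3.33 to -2.31; limma adjusted p = 3.881e-08), and because the AF signal was capped this difference is a lower limit on its size, at least 7.07-fold. The cap also shrank the spread of the AF values, so the interval may be too narrow and the p-value too small. Only 18 to 36 gene probe sets in each AF array were as bright as Sparc or brighter.

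Thbs1, which activates latent TGF-beta and binds CD47, was above background in the AF alone. Its NP signal was 4.51 ± 0.44 in NP ank and 5.02 ± 0.95 in NP WT, below background in all 10 arrays. Its AF signal was 11.05 ± 2.24 in AF ank and 11.02 ± 2.45 in AF WT. The NP and AF arrays did not overlap, although the lowest AF value (AF WT replicate 53, 7.13) was itself below background. With the array background standing in for the NP signal, Thbs1 was at least 12.4-fold lower in the NP, a lower limit that does not rank it among the members.

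Thbs2 and Thbs3, a collagen-fibril regulator and a pentameric relative, were also lower in the NP. Thbs2 averaged 7.90 ± 0.75 in NP ank and 8.77 ± 0.30 in NP WT, against 10.02 ± 0.78 in AF ank and 10.34 ± 1.25 in AF WT. In 9 of 10 mice the NP value was the lower one, with a difference of -1.84 (95% CI -2.59 to -1.10; limma adjusted p = 1.131e-04). Thbs3 was below background in every NP array (5.47 to 6.57) against 6.25 to 9.24 in the AF, which makes it at least 1.51-fold lower in the NP. The NP value was the lower one in all 10 mice, a direction built into a gene tested only because of its AF signal. The AF values of ank replicate 31 (7.98) and WT replicate 53 (6.25) were themselves below background.

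The CCN proteins are modular ligands for integrins and heparan sulfate proteoglycans, and the 3 measured here did not share a tissue pattern. Ccn3, which is known to oppose several actions of CCN2, was the only member called higher in the NP, with 12.44 ± 1.73 in NP ank and 13.07 ± 0.55 in NP WT, against 9.28 ± 0.78 in AF ank and 9.05 ± 1.07 in AF WT. The NP value exceeded the AF value in 10 of 10 mice, by 3.59 on average (95% CI 2.64 to 4.55; limma adjusted p = 1.507e-06). Ccn2, formerly connective tissue growth factor, ran the other way, with 8.19 ± 0.59 in NP ank and 8.52 ± 0.59 in NP WT, against 9.73 ± 1.61 in AF ank and 9.96 ± 2.10 in AF WT. Its tissue difference was -1.49 (95% CI -2.65 to -0.33; limma adjusted p = 0.0193) with 8 of 10 mice lower in the NP, and the adjusted p was 0.0624 without ank replicate 34 and 0.0582 without WT replicate 33. Ccn1, an integrin ligand and immediate early gene, was at 14.66 to 17.81 in the NP and 12.33 to 19.37 in the AF. Its difference of 1.48 (95% CI -0.04 to 2.99; limma adjusted p = 0.0687) was near the median of all genes and was -0.03 after joint quantile normalization, whereas the adjusted p was 0.0147, 0.0396 and 0.0274 when ank replicate 41, ank replicate 48 or WT replicate 33 was left out. The signs of the 6 called members were unchanged by joint quantile normalization, where Ccn3 was 2.12 higher in the NP and Thbs2 -3.15 and Ccn2 -2.74.

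**Figure D2:**
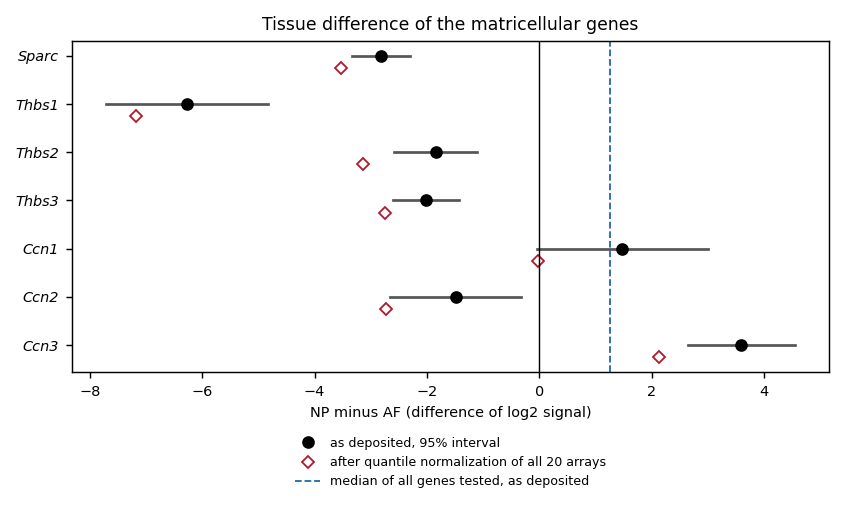
Difference of log2 signal, NP minus AF, for the 7 members tested, with 95% confidence intervals (black circles and lines) and after quantile normalization of all 20 arrays together (open diamonds). The dashed line is the median of all 6516 genes tested, 1.26, and Ccn3 alone lies with its whole interval to the right of it, whereas Thbs1 and Thbs3 are drawn at NP signals below background and have no order.

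Other matricellular and matrix genes were measured beside the members. Of 18 further matricellular genes, 9 were tested between the tissues, of which 4 were lower and 3 higher in the NP. Those called included Comp (-7.40), the growth factor-binding Igfbp7 (-3.37), the collagen-binding Tgfbi (-1.39) and tenascin-X, Tnxb (1.98). Only 7 of the 9 passed the filter in the NP. Comp, above background in 1 of 10 NP arrays, was tested because of its AF signal. It therefore had to differ, and -7.40 is not a measured fold. After joint quantile normalization 5 of the 9 were lower and 0 higher, beside 12.8% of all genes lower and 27.1% higher under that scaling. Of 13 collagen and collagen-assembly genes tested, 9 were lower in the NP and 1 higher, with a median difference of -3.50 against 1.26 for all genes, and 10 were lower and 0 higher after joint normalization. Only 9 of these 13 genes were above background in enough NP arrays to be tested within the NP. The rest were tested because of their AF signal, so a lower NP signal was built into their selection. Dcn, a collagen-binding proteoglycan, differed by -9.85 and Col1a2, a chain of type I collagen, by -7.35. Lox, a collagen cross-linking enzyme, averaged 5.92 in NP ank and 6.34 in NP WT, below the lowest NP background. Its difference of -5.60 is therefore not a measured fold. Sparc, Thbs2 and Ccn2 had the same sign as these collagen genes.

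Between genotypes in the NP, Sparc and Thbs2 were the members with the lowest unadjusted p-values, and no member passed adjustment. Of the 5 members tested, 2 were lower in ank at the study's thresholds and 0 were higher, beside 2.81% of 6341 genes lower and 0.505% higher. With Benjamini-Hochberg adjustment 0 of the 6341 genes were called by limma, with 269 at an unadjusted p below 0.05 and a smallest adjusted p of 0.709. The p-values set each mean difference against the spread between individual mice of a genotype, each measured on its own array.

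The Sparc signal was 17.60, 16.06, 16.27, 16.79 and 14.90 in NP ank (replicates 31, 34, 39, 41 and 48), against 18.21, 17.52, 17.79, 17.95 and 17.93 in NP WT (replicates 32, 33, 53, 55 and 59). The WT arrays lay within a narrow band, and 4 of 5 ank arrays lay below every WT array, with only replicate 31 inside their range. At least 4 of 5 ank arrays lay below all WT arrays in 3.34% of the genes tested. Sparc was 2.94-fold lower in ank, a difference of -1.56 (95% CI -2.46 to -0.65; limma adjusted p = 0.973), and its unadjusted p was the 9th smallest of the 6341 genes. The difference was -1.20 over the 3 ank and 3 WT arrays of spike-in set A and -2.10 over the 2 ank and 2 WT arrays of set B. With the control AUC, a measure of how well positive and negative control probe sets separate in an array, as a covariate the difference was -1.49 (limma adjusted p = 0.692).

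Thbs2 measured 9.08, 7.26, 8.20, 7.45 and 7.51 in NP ank, against 8.56, 8.78, 8.77, 8.50 and 9.25 in NP WT, with the replicates in the same order as above. Again 4 of 5 ank arrays lay below every WT array and replicate 31 was the exception, here above all but 1 of the WT arrays. The values of ank replicates 34 and 48 were below the background of their arrays. The difference was -0.87 (95% CI -1.65 to -0.09; limma adjusted p = 0.973), 1.83-fold lower in ank. It was -0.52 over set A arrays and -1.40 over set B arrays, and -0.57 when arrays that stood apart were down-weighted, where it no longer met the study's thresholds. Nor did it when any 1 of ank replicates 34, 41 and 48 or WT replicate 59 was left out, and the number of members at these thresholds was then 1, Sparc.

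**Figure D3:**
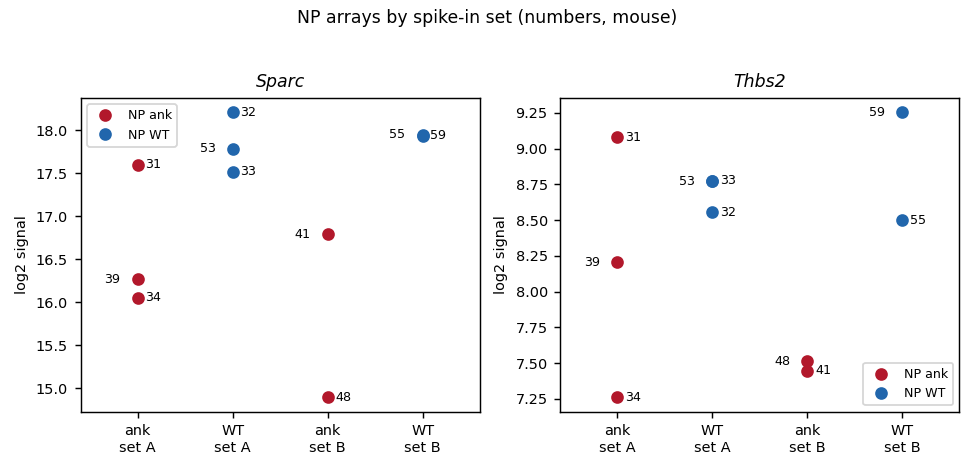
Log2 signal of Sparc and Thbs2 in the 10 NP arrays, ank and WT side by side within spike-in set A and set B; each point is 1 mouse, with its number beside it. Apart from ank replicate 31, the ank points lie below the WT points in both genes and both sets.

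Of the 9 collagen and collagen-assembly genes tested in the NP, 7 had a negative and 2 a positive ank difference, and 37.8% of all genes were positive. The 3 AF and tendon markers tested in the NP were all below 0, and Col1a1 (-1.48; 8.22 in NP ank and 9.70 in NP WT) and the collagen-binding Fmod (-0.98; 18.16 in NP ank and 19.14 in NP WT) were lower in ank at the study's thresholds (limma adjusted p = 0.973 for both), although 0 were past these thresholds after quantile normalization of the NP arrays. The 11 measured markers of AF and tendon had array means of 7.11 to 7.31 in NP ank and 7.04 to 8.32 in NP WT, with Scx, Mkx, Tnmd and Lum below background throughout. The 2 highest means, 8.18 and 8.32, were in NP WT replicates 32 and 55. Without these 2 arrays, a choice made after seeing the data, the difference was -1.43 for Sparc and -1.03 for Thbs2, both still at the study's thresholds. The part of AF tissue in these differences was not tested. Smoc1, a SPARC relative, was the only one of 7 further matricellular genes tested in the NP that was lower at the thresholds (-1.59; 9.06 in NP ank and 10.65 in NP WT; limma adjusted p = 0.973). At these thresholds 2.81% of all genes tested in the NP were lower. After centring on the median 2 of the 7 were lower, beside 3.37% of all genes.

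The CCN genes overlapped between the genotypes in the NP. Ccn1 was 17.24, 15.24, 16.87, 17.81 and 14.66 in NP ank and 16.10, 14.68, 17.69, 17.44 and 17.22 in NP WT, a range of about the same width in both. The difference was -0.26 (95% CI -1.69 to 1.17) and changed sign when some single arrays were left out. Ccn2 was 8.74, 7.88, 8.84, 8.02 and 7.44 in NP ank and 9.53, 8.14, 8.51, 8.08 and 8.35 in NP WT, with ank replicates 34 and 48 below background. Of its 5 ank values 3 lay under every WT value, and the difference was -0.34 (95% CI -1.13 to 0.46). Ccn3 measured 14.27, 10.15, 13.09, 13.55 and 11.15 in NP ank and 12.99, 14.04, 12.95, 12.67 and 12.73 in NP WT. The ank arrays thus held both the highest Ccn3 value and the 2 lowest, replicates 34 and 48, with a difference of -0.63 (95% CI -2.04 to 0.78). The limma adjusted p was 0.973 for Ccn2 and Ccn3 and 0.989 for Ccn1. Thbs1, Thbs3, Postn and Tnc were below background in the NP, with 2 exceptions, Postn at 7.66 and Tnc at 7.61, both in NP WT replicate 55.

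In the AF no genotype difference of a member passed either threshold. Of 6 members for which a difference could be read, 0 were at the study's thresholds, beside 3.56% of 4077 genes higher in ank and 0.147% lower. With adjustment 0 genes were called by limma, with 154 at an unadjusted p below 0.05 and a smallest adjusted p of 0.946, and the median gene was 0.28 higher in ank (0.05 after quantile normalization of the AF arrays). Sparc was at the ceiling in both genotypes, so its ank difference could not be read there. The 6 adjusted p-values ran from 0.946 to 0.996.

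Thbs1 was split within each genotype in the AF. It measured 12.96, 12.52, 12.57, 8.53 and 8.67 in AF ank, against 13.52, 12.37, 7.13, 10.41 and 11.66 in AF WT. Replicates 41 and 48 of ank and 53 of WT formed the low end, and the difference of 0.03 had a 95% CI of -2.69 to 2.75. Ccn2 measured 10.42, 11.72, 10.37, 7.99 and 8.15 in AF ank, against 12.52, 11.88, 7.78, 8.89 and 8.74 in AF WT, with a difference of -0.23 (95% CI -2.43 to 1.97). The 5 arrays highest in Thbs1 were also the 5 highest in Ccn2, namely ank replicates 31, 34 and 39 and WT replicates 32 and 33. These were the 4 arrays of spike-in set A and 1 of set B, and the part of the set in these levels was not tested. Ccn2 ran from 10.42 to 12.52 in set A and from 7.78 to 10.37 in set B. The 5 highest AF arrays were compared for every pair of members other than Sparc. Only Thbs1 with Ccn2 and Ccn1 with Ccn3 shared all 5, and the other pairs shared 1 to 4. How often other genes share their highest arrays was not tested.

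Ccn1 and Ccn3 varied together in the AF, in another order. Ccn1 measured 13.40, 15.47, 12.33, 19.37 and 16.42 in AF ank, against 13.08, 15.97, 12.73, 15.43 and 15.99 in AF WT. Ccn3 measured 8.23, 9.73, 8.91, 10.27 and 9.27 in AF ank, against 8.24, 10.64, 8.52, 8.20 and 9.65 in AF WT. The same 5 arrays were highest in both, ank replicates 34, 41 and 48 and WT replicates 33 and 59. The genotype difference was 0.76 for Ccn1 (95% CI -1.86 to 3.37) and 0.23 for Ccn3 (95% CI -0.98 to 1.45). Of these 5 arrays, 4 were also the highest of the AF in the 13 NP and notochord markers, with means of 10.64 to 11.36 against 7.63 to 10.14 in the other 6 arrays, and the exception was WT replicate 33 at 7.63. The 5 arrays highest in Ccn1 and Ccn3 also had many genes above background, 3811 to 6362. The other AF arrays had 1781 to 3336, except ank replicate 39 with 4408. The part of NP cells or of signal quality in these levels was not tested.

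**Figure D4:**
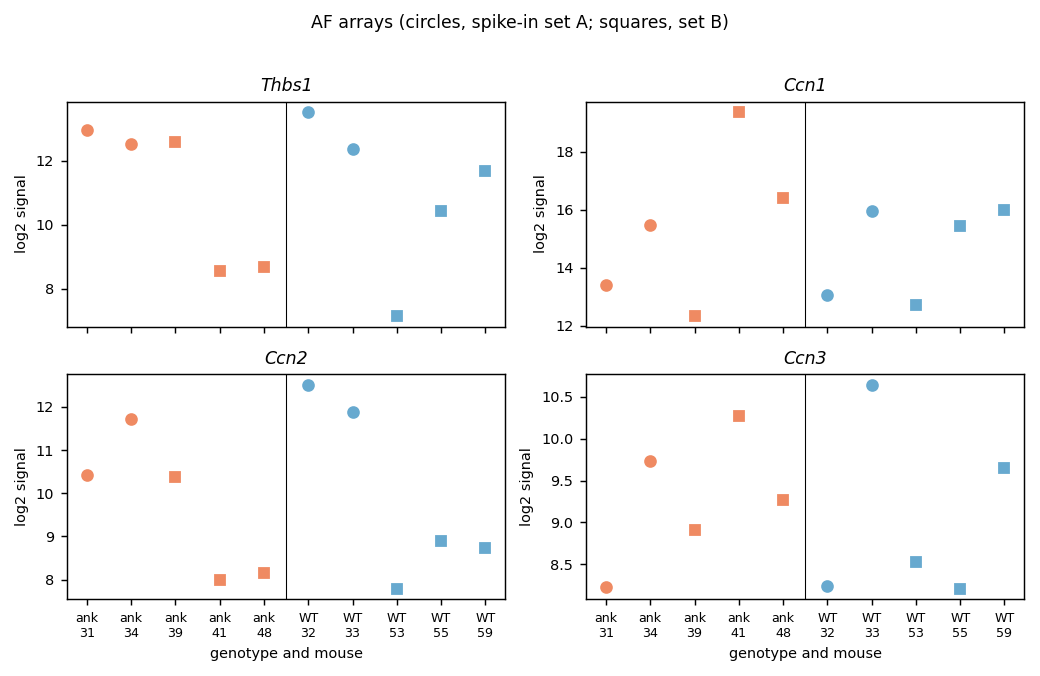
Log2 signal of Thbs1, Ccn2, Ccn1 and Ccn3 in the 10 AF arrays, ank on the left and WT on the right of each panel, 1 point per mouse (circles, spike-in set A; squares, set B). Thbs1 and Ccn2 are high in the same 5 arrays, and Ccn1 and Ccn3 in another 5.

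Thbs2 and Thbs3 overlapped between the genotypes in the AF. Thbs2 measured 9.07 to 11.11 in AF ank and 8.23 to 11.43 in AF WT, with a difference of -0.32 (95% CI -1.64 to 1.0). Thbs3 measured 7.73 to 9.24 in AF ank and 6.25 to 8.84 in AF WT, with a difference of 0.25 (95% CI -0.86 to 1.36). The lowest AF value of Thbs1, Thbs2, Thbs3 and Ccn2 came from the same array, WT replicate 53, which had 2831 genes above background and a control AUC of 0.607, among the lowest of the AF.

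Postn and Tnc, matrix proteins that are best known from periosteum, tendon and healing tissue, stood out in 1 AF array. Postn was 6.61, 5.73, 7.67, 8.13 and 5.99 in AF ank and 7.0, 13.83, 6.66, 7.28 and 6.46 in AF WT. Tnc was 6.39, 5.30, 5.99, 10.24 and 4.64 in AF ank and 5.51, 18.80, 4.76, 4.93 and 5.52 in AF WT. The high array in both was WT replicate 33, where the 8 osteoblast markers averaged 13.92, the 12 skeletal muscle markers 13.23 and the 9 fibroblast and periosteum markers 7.88. In the other AF WT arrays these lists averaged 5.98 to 7.08, 5.32 to 6.54 and 5.49 to 6.09, and in AF ank 6.19 to 8.39, 5.43 to 7.02 and 5.29 to 5.49. The hypertrophic chondrocyte (14.49), cartilage (12.21), macrophage and osteoclast (9.78) and endothelium (7.77) lists were also highest of the AF in WT replicate 33. Tnc was above background in 1 other AF array, ank replicate 41 (10.24), which had 6 of 8 osteoblast markers above background, more than any AF array but WT replicate 33. The part of these tissues and cell types in the Postn and Tnc signals was not tested.

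**Figure D5:**
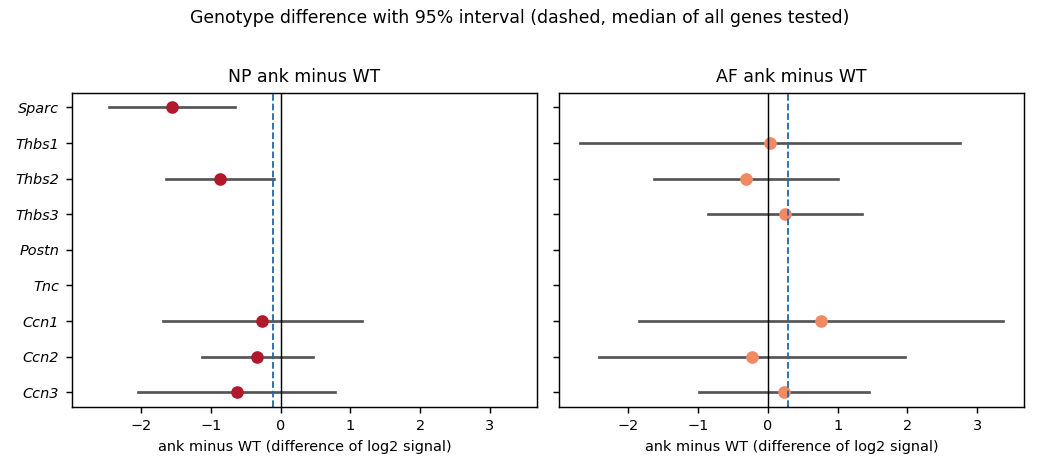
Difference of log2 signal, ank minus WT, with 95% confidence intervals for the members tested in the NP (left) and the AF (right); dashed lines mark the median of all genes tested, -0.11 in the NP and 0.28 in the AF. Sparc is not drawn in the AF, where it was at the ceiling, and the intervals of Sparc and Thbs2 in the NP are the only ones that leave out 0.

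The ank difference itself was compared between the tissues by an interaction contrast over 6516 genes. No member passed adjustment (0 genes in all, 309 at an unadjusted p below 0.05, smallest limma adjusted p = 0.889). Thbs2 differed by -0.55 (95% CI -2.04 to 0.93; limma adjusted p = 0.903) and Ccn1 by -1.02 (95% CI -4.05 to 2.01; limma adjusted p = 0.915), NP effect minus AF effect. Of the 7 members 1, Sparc, was past the study's thresholds, beside 4.36% of genes lower and 0.368% higher, but its contrast could not be read because of the ceiling in the AF. A lower Thbs2 in ank was thus not shown to be restricted to the NP.

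Genes that act upstream or downstream of the members were counted as well. The list of YAP and TAZ targets, without Ccn1 and Ccn2, also held the pathway's own factors Yap1, Wwtr1 and Tead1. Of its genes 14 were tested in the NP. There 2 were lower in ank at the study's thresholds, Ajuba (-0.84) and Yap1 itself (-0.82), and 0 higher, beside 2.81% of all genes lower and 0.505% higher. In the AF 11 were tested, of which 3 were higher, Dock5 (1.07), Tead1 (1.14) and Crim1 (1.36), and 1 was lower, the receptor Axl (-1.47), all with limma adjusted p = 0.946, beside 3.56% of all genes higher and 0.147% lower. The 3 higher genes were also higher in the NP than in the AF (Dock5 by 2.75, Tead1 by 2.02 and Crim1 by 2.88), and of the 7 NP and notochord markers tested in the AF 6 had a positive ank difference, with a median of 1.47 against 0.28 for all genes. The part of NP cells in these differences was not tested. Both counts depended on scaling, with 1 lower in the NP and 1 higher and 1 lower in the AF after quantile normalization within the tissue. Of the genes of TGF-beta signalling, 0 of 12 in the NP and 0 of 13 in the AF were past the thresholds, although 2 were lower in AF ank after quantile normalization and 1 was lower in NP ank after centring on the median. Among receptors and binding partners, 0 of 10 in the NP and 0 of 8 in the AF were past them, with a difference of 0.68 in each tissue for the THBS1 receptor Cd47, although 1 of these genes was past them, higher in NP ank, after quantile normalization. Among enzymes that cut matricellular proteins, a list that also held the kinase gene Fam20c, 0 of 6 in the NP and 0 of 5 in the AF were past them.

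Immediate early genes were counted because Ccn1 is one of them. In the AF all 14 tested had a positive ank difference, as did 72.4% of all genes, with a median of 0.97 against 0.28 for all genes, and 2 were higher at the study's thresholds, Fosb (3.39) and Myc (3.55; limma adjusted p = 0.946 for both). In the NP 9 of 14 were positive, as were 37.8% of all genes, and Fosb (4.81) and Myc (2.80) were again past the thresholds (limma adjusted p = 0.973 for both). These signs in the AF held in 14 of 14 genes under both other scalings. In AF ank replicate 41 the highest Ccn1 signal (19.37) stood beside the highest Myc signal of the AF (16.28), but in AF ank replicate 39 the lowest Ccn1 signal (12.33) stood beside the highest Fos (15.11) and Egr1 (18.47). High immediate early signal and high Ccn1 thus did not coincide in every array.

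Genes with a pattern like that of a member were sought among the genes tested, over the 20 arrays after subtraction of each tissue's mean, for the 2 members above background in every array. The nearest to Ccn1 were Dgki (Pearson r = 0.886), Ehd4 (0.866) and Fkbp14 (0.844). The nearest to Sparc were Slc35b4 (0.752), Ccpg1os (0.742) and Selenon (0.731), a likeness that rests on the NP arrays because the AF signal of Sparc was capped. These values describe 20 arrays of 10 mice that share their processing.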

How the data were processed

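RNA from NP and AF tissue of 10 mice was measured on Clariom S arrays, with an array for each tissue of each mouse, and the authors deposited log2 signals made with the sst-rma method (background correction, normalization and a summary of the probes) in the Transcriptome Analysis Console. The table held 28846 probe sets. Of the 22206 that stand for genes, 19572 had 1 symbol in the platform annotation, 0 had several and 2634 had none, and 19505 genes remained after the brighter probe set was kept for 55 genes with more than 1. The study's detection filter was not used here. In its place, genes above array background in at least 5 of the 10 arrays of a tissue were tested (6341 in the NP, 4077 in the AF, 6516 in either). Arrays have no read depth, and the number of mice limits the precision.

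Genotypes were compared within each tissue, and tissues and the interaction over all 20 arrays, with limma 3.58.1 (lmFit and eBayes) in R 4.3.3, with Benjamini-Hochberg adjustment at 0.05 over all genes tested, tested first on simulated data. The study's thresholds were counted on the same fits. Bounds set the brighter tissue's mean against the array background of the dimmer one. The members and gene lists were chosen with earlier results of these data known. Genes named are all members, up to 4 genes of each list with the smallest p (others chosen after their values were seen are Krt19, Comp and markers that check the tissue) and up to 3 genes most like a member. NP and AF arrays with 1 mouse number come from 1 animal. Their deviations from the group means correlated with a median of 0.157 over 3902 genes within animals and -0.016 between animals. Within groups, arrays correlated by 0.749 to 0.975, and 0 pairs were identical. Alternatives covered normalization, background filter, array weights, sex, spike-in set, control AUC, the replicate block and each mouse left out. Plots used Python 3.11.15 with matplotlib 3.10.9.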

Additional observations from a re-analysis of the deposited data

Results flagged for a closer look

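Dixon's test at its 95% level, with 36 groups of 5 arrays tested, marked 6 values as far from the rest of their group, and chance marks about 1 in 20 groups. Tnc in AF WT replicate 33 was 18.80, and the next highest AF WT value was 5.52. Postn in the same array was 13.83, with 7.28 next. Ccn3 in NP WT replicate 33, the other tissue of that mouse, was 14.04, with 12.99 next. Thbs3 was highest in ank replicate 39 in both tissues, at 6.57 in the NP (6.01 next, both below background) and 9.24 in the AF (7.98 next). Sparc in AF ank replicate 39 was 19.91, just under the ceiling of 19.93 at which the other 4 AF ank arrays lay. With 4 values tied at the ceiling any lower value would be marked, so this mark reflects the ceiling.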

How the results depend on the processing

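The genotype differences of Sparc, Thbs2, Ccn2 and Ccn3 in the NP kept their sign under every alternative in which each was tested. They ran from -2.10 to -1.20 for Sparc and from -0.50 to -0.08 for Ccn2. All counts after adjustment in the genotype and interaction contrasts stayed at 0. Members lower in NP ank at the study's thresholds numbered 1 instead of 2 with a filter of all 10 arrays above background, array weights, spike-in set A alone and all 20 arrays in the fit, and 1 to 2 with single mice left out. Genes higher in NP ank at these thresholds (32) were 65 after quantile normalization, 162 without a filter, 11 above background in all arrays, 134 with the antigenomic background, 59 with array weights, 120 within set B, 86 with the AUC covariate and 22 to 104 with single mice left out. Genes lower (178) were 96, 276 and 83 with the all-array filter, array weights and set B, 111 with all 20 arrays in the fit and 94 to 321 with single mice left out. In the AF, genes higher (145) were 86, 344, 51, 330, 540, 25, 930 and 245, and genes lower (6) were 41, 144, 2, 108, 22, 26, 44 and 13, with quantile normalization, no filter, the all-array filter, the antigenomic background, array weights, set A, set B and all 20 arrays; genes lower were also 3 after median centring and 53 with the AUC covariate. Single mice left out gave 61 to 603 higher and 3 to 15 lower. For NP minus AF, genes higher after adjustment (4978) were 1765 after joint quantile normalization and 2804 when above background in both tissues, and genes lower (164) were 833 and 64, and 288 after centring. At the study's thresholds the counts were 4534 higher (1641 and 2599) and 138 lower (755 and 57, and 235 after centring). Members lower in the NP were 3 instead of 5, after adjustment and at the thresholds, when Thbs1 and Thbs3 were not tested because they had to be above background in both tissues. Members higher in the NP were 1 to 2 with single mice left out, by either rule. The mouse as a replicate block put 2 members higher at the thresholds, against 1 without it, by adding Ccn1 (limma adjusted p = 0.0544) and changed no adjusted call of a member. Interaction counts at the thresholds were 24 higher (63 after quantile normalization, 10 after centring, 12 above background in both tissues, 14 to 36 with single mice left out) and 284 lower (182, and 165 above background in both tissues, and 111 to 664). Signs of small member differences turned. In the NP, Ccn1 was 0.29 within set A and -0.75 to 0.16 with single mice left out. In the AF, Thbs1 was -0.26 with array weights, -0.21 within set A and -0.94 to 0.66 with single mice left out; Thbs3 was -0.24 within set A and -0.16 to 0.49; Ccn1 was -0.091 within set A and -0.23 to 1.53; Ccn2 was 0.075 with array weights, 0.37 within set B and -0.77 to 0.41; Ccn3 was -0.035 after quantile normalization, -0.46 within set A, -0.10 with the AUC covariate and -0.014 to 0.63. Ccn1, NP minus AF, was -0.034 after joint quantile normalization. In the interaction Ccn2 was 0.11 after joint quantile normalization and -0.69 to 0.46 with single mice left out, Thbs1 -1.22 to 0.23 and Thbs3 -0.32 to 0.24. The cause of these changes was not tested. Signal over background limits Thbs2 and Ccn2 in the NP and Thbs3 in the AF, which lie near it.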
